A study of Mus musculus with 24 samples.

Results

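Double negative Ly49+ cells were defined among NK1.1+CD3e+ cells of the mouse liver by 6 genes, and 415 of the 1382 cells with at least 10000 unique molecular identifiers (UMIs) met the definition. A cell was included when Cd8a and Cd4 were each below 0.5 and the sum of Klra1, Klra5, Klra7 and Klra9 was at least 0.5, with values in UMIs per 10000 UMIs of the cell. The levels of these 6 genes are therefore a description of how the cells were chosen and were not tested. The cells came from young adult C57BL/6 mice of the wild type (WT), J{alpha}18-/- (Jα18-deficient) and CD1d-/- (CD1d-deficient) genotypes. Loss of Jα18 removes a T cell receptor segment that type I NKT cells need, and loss of CD1d removes the presenting molecule on which NKT cells of type I and of type II depend. Leukocytes were sorted for NK1.1 and CD3e, and single cells were picked by hand and sequenced with UMIs. WT mice were purchased and both deficient lines came from another source, so that genotype and source cannot be told apart. The labels list 8 libraries per genotype, but the cells are named by genotype alone, so each genotype formed 1 pool and genotypes were compared without a test. Where 3 values follow each other they are in the order WT, Jα18-deficient, CD1d-deficient unless another order is given.

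Ly49 molecules are receptors of the natural killer (NK) complex that bind MHC class I molecules. Most of them are inhibitory, carrying in the cytoplasmic tail an immunoreceptor tyrosine-based inhibitory motif (ITIM) that recruits phosphatases, whereas the activating members lack it and signal through the adaptor DAP12, the product of Tyrobp. They were first known on NK cells, where each cell uses a few genes of the family, and are also found on subsets of T cells.

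The starts of the coding sequences of the 4 genes of the definition, with the activating receptor gene Klra8 as a contrast, are shown because the ITIM lies in them. Each stretch is the first 60 coding bases, within the first coding exon on the minus strand of chromosome 6 in NCBIM37 (GENCODE M1), and capitals mark bases 16 to 33, counted from the start codon.
Klra1: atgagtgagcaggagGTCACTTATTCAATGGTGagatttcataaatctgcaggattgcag
Klra5: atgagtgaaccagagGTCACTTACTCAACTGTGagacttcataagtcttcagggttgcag
Klra7: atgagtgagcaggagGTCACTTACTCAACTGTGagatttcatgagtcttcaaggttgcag
Klra9: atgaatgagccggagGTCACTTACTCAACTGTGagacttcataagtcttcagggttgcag
Klra8: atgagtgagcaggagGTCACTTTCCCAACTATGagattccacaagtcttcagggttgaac

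The stretches lie at chr6:130330621-130330680 for Klra1, chr6:129861420-129861479 for Klra5, chr6:130181576-130181635 for Klra7, chr6:130141260-130141319 for Klra9 and chr6:130078119-130078178 for Klra8. A search in frame for the codons of an ITIM, isoleucine, valine or leucine, any residue, tyrosine, any 2 residues and leucine or valine, gave 1 match in each of the 4 genes, at the capitals, and 0 in Klra8. In the capitals Klra5, Klra7 and Klra9 did not differ, and Klra1 differed from each of them at 3 bases. Over all 60 bases Klra5 and Klra9 differed at 3. Whether reads of these genes can be told apart depends on their length after trimming, which is not known here. For Klra9, 29.4% of all windows of 50 bases of the transcript, and 40.6% of those in its last 300 bases, also occur in a transcript of another Ly49 gene. The share was 3.15% for Klra1, 2.27% for Klra5 and 0 of 1026 windows for Klra7. Over windows of 150 bases, 0 were shared for each of the 4 genes, without allowance for mismatches. In the same annotation the span of Klra9 overlaps those of Klra3, Klra7, Klra10 and Klra23.

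The sorted phenotype was present in the double negative Ly49+ cells. Cd3d, Cd3e and Cd3g encode CD3 chains, and Cd3e had a UMI in 96.8%, 98.5% and 88.9% of the cells. Klrb1c, which encodes NK1.1, had a UMI in 93.5%, 97.8% and 92.6%. In the double negative cells without Ly49 the same shares were 96.5%, 98.3% and 92.1% for Cd3e and 96.1%, 97.7% and 100% for Klrb1c. Absence of the co-receptors was less complete, since the definition allows a low value. A UMI of Cd8a was found in 7 of 62, 103 of 272 and 33 of 81 cells, and one of Cd4 in 10, 44 and 0 cells. Cd8b1, the second chain of CD8 and not part of the definition, had a UMI in 0, 28 and 4 cells, and 1 cell held 57.9% of its UMIs in the Jα18-deficient pool.

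Transcripts of other lineages were measured as summed UMIs per 1000000 UMIs (CPM) over fixed lists. The 10 genes listed for NK cells and group 1 innate lymphoid cells all had UMIs in the double negative Ly49+ cells of each pool, and their sum was 7939, 5067 and 9700 CPM, against 953, 3308 and 8771 CPM in all other cells. Eomes, a transcription factor that defines conventional NK cells, was at 5.22, 5.26 and 1.05 CPM. It was higher in each pool than in the cells with Ly49 and Cd8a compared below. Tyrobp, Fcer1g and Gzma, of the same list, were lower in that comparison. Against double negative cells without Ly49, Eomes was neither higher nor lower in each pool. Whether the Eomes level tells NK cells from T cells here was not tested. Listed myeloid genes summed to 982 CPM in the CD1d-deficient pool, of which Lyz2, a lysozyme, made up 659, but to 107 in the WT pool and 45.8 in the Jα18-deficient pool. In all other cells the myeloid sums were 864, 137 and 32.8 in the same order. Of the γδ T cell genes, 7, 2 and 5 of 8 were at 0, with sums of 8.0 to 17.8 CPM. B cell and endothelial genes summed to at most 20.9 CPM, hepatocyte genes ranged from 58.8 to 168 CPM, and of 10 erythroid and platelet genes at least 9 were at 0. The part of such transcripts in the results below was not tested.

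Double negative Ly49+ cells were least frequent in the WT pool. Of 523 WT cells 62 were of this kind, or 11.9% (exact Clopper-Pearson 95% interval 9.21 to 14.9%). The Jα18-deficient pool held 272 among 632, or 43.0% (39.1 to 47.0%), and the CD1d-deficient pool 81 among 227, or 35.7% (29.5 to 42.3%). The intervals cover counting error only, not the spread between mice. Depth differed as well: these cells had a median of 34076.5, 69017.5 and 36565 UMIs. When each cell was thinned to 10000 UMIs before the definition was applied, the shares were 16.6%, 43.8% and 35.7%. A stricter Ly49 sum of at least 2 gave 8.80%, 25.6% and 31.3%, so that the order of both deficient pools turned, and cells with no UMI of Cd8a or Cd4 made up 8.99%, 23.1% and 21.1%. In each of these settings the WT pool stayed lowest. Among the 353 cells below 10000 UMIs, 106 met the gene part of the definition.

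**Figure D1:**
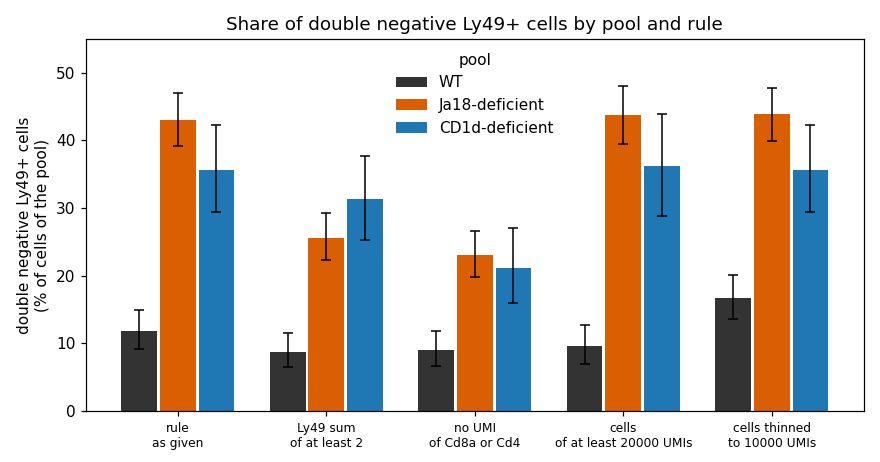
Bars give double negative Ly49+ cells as a percentage of the cells of each genotype pool (WT, Jα18-deficient and CD1d-deficient), under the definition and 4 alternatives, and error bars are exact 95% binomial intervals. The WT bar is the lowest in each group, at 8.80 to 16.6%, and the deficient pools exchange places when the Ly49 sum must be at least 2.

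The summed Ly49 value spanned a wide range. Its lowest value, median and highest value were 0.513, 8.57 and 75.4 UMIs per 10000 for WT, 0.5004, 6.14 and 101 for Jα18-deficient and 0.528, 14.5 and 85.5 for CD1d-deficient cells. The highest values of double negative cells just outside the threshold were 0.498, 0.494 and 0.465. No gap separated both sides: 10, 52 and 4 cells lay between 0.5 and 0.75, and 31, 88 and 11 double negative cells lay from 0.25 up to the threshold. Low Ly49 values below the threshold were more common in the deficient pools. Of the double negative cells below it, 202 of 283, 46 of 173 and 14 of 38 were at 0, and their medians were 0, 0.251 and 0.131. Whether the threshold has the same meaning in each pool was not tested. Cells with a low sum, from 0.5 to under 2, were 16, 110 and 10 in number, or 25.8%, 40.4% and 12.3%. Cells at 10 and above numbered 29, 114 and 47.

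In most cells 1 of the 4 Ly49 genes made up the larger part of the sum, but many cells held more than 1. The highest of the 4 genes made up a median of 98.2%, 75.3% and 80.4% of a cell's sum. At least 2 genes at 0.5 or above were found in 22, 105 and 44 cells, which is 35.5%, 38.6% and 54.3%. With a Ly49 sum of at least 2 these shares were 43.5%, 61.7% and 62.0%. In cells with the same Ly49 threshold and Cd8a at 0.5 or above, the highest gene made up a median of 76.4%, 65.5% and 90.9%. Of those cells 56.7%, 73.3% and 51.8% held at least 2 genes. Every gene was the leading gene in some cells of every pool. Klra7, encoding Ly49G, led in 27.4%, 49.6% and 35.8% of cells, and Klra1, encoding Ly49A, in 29.0%, 25% and 22.2%. Klra5, encoding Ly49E, led in 22.6%, 8.46% and 23.5%, and Klra9, encoding Ly49I, in 21.0%, 16.9% and 18.5%. The lower share of Klra5 in the Jα18-deficient pool was seen in its level too, at 94.6 CPM against 408 CPM for WT and 506 CPM for CD1d-deficient cells. In 3, 54 and 3 cells no gene reached 0.5 without the others. Among the rest the most frequent pattern was Klra1 alone in WT cells (13 cells) and Klra7 alone in Jα18-deficient cells (53 cells), while Klra1 alone, Klra5 alone and Klra1 with Klra7 were each found in 10 CD1d-deficient cells. All 4 genes together were at 0.5 or above in 0, 3 and 2 cells.

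**Figure D2:**
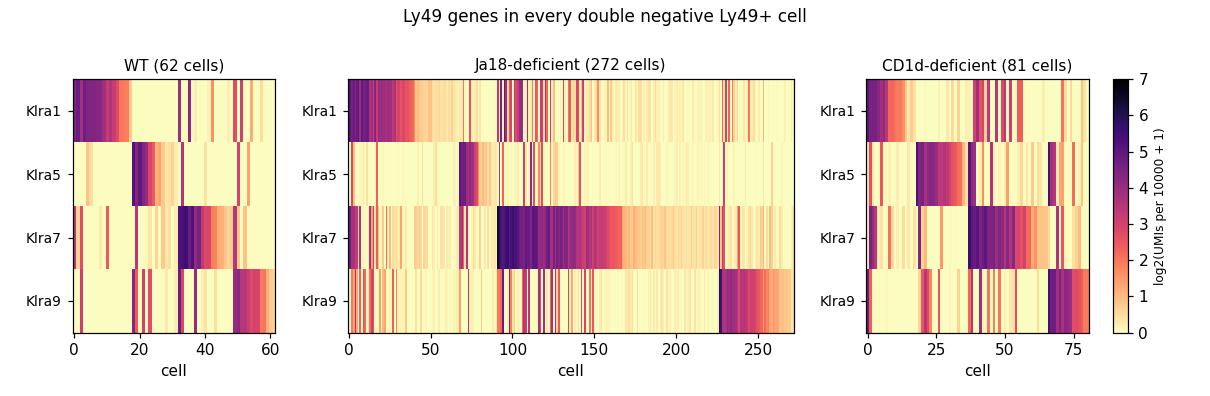
Each column is a double negative Ly49+ cell and each row a Ly49 gene, coloured by log2(UMIs per 10000 + 1), with cells sorted by their highest gene and then by their sum, in a panel per pool. The dark blocks along the diagonal are cells led by 1 gene, and the pale right ends of the blocks in the Jα18-deficient panel include its 110 cells with a sum under 2.

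Of the other Ly49 genes, Klra3 was the one found in many cells. Klra3, encoding the inhibitory Ly49C, had a level of 67.8, 94.5 and 35.4 CPM, while all other cells were at 40.4, 117 and 62.8 CPM and double negative cells without Ly49 at 24.6, 78.7 and 3.26 CPM. In Jα18-deficient cells this was as high as the level of Klra5, at 94.6 CPM. In the last 300 bases of Klra9, a gene of the definition, 82 of 251 windows of 50 bases also occur in Klra3. How far reads of Klra3 and Klra9 were told apart was not tested. Klra8, encoding the activating Ly49H, was at 8.69, 2.84 and 5.90 CPM with a UMI in 3.23%, 2.21% and 3.70% of cells. Klra4 and Klra6 were listed at 0 in every cell class of every pool. Of the 11 other Ly49 genes on the list, 4 passed the filter on low counts. Klra3 and Klra23 were higher in each pool than in double negative cells without Ly49, but none of the 4 passed a test in any of the comparisons that follow.

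Differences from other cells were tested on UMIs summed per pool and cell class, with the 3 pools as replicates, by the quasi-likelihood test of edgeR. To be called, a gene had to reach a Benjamini-Hochberg adjusted p below 0.05 with a fold change of over 0.25 on the ln scale in either direction. The first comparison asked what sets double negative cells with Ly49 apart from the 494 double negative cells without it. Of 10037 genes tested, 1 was called higher (0.00996% of genes tested) and 0 lower, while 307 (3.06%) had an unadjusted p under 0.05, DESeq2 called 12 higher and 8 lower, and limma called 0. The counts of DESeq2 and limma stand here and below as alternatives, not as support. Leaving out the CD1d-deficient pool gave 12 higher and 2 lower genes, and leaving out the WT or the Jα18-deficient pool gave 0 higher. With this power, pool by pool values are given for the other genes, together with whether they were at least 2-fold apart in each of the 3 pools on the scale of log2(CPM + 1), a criterion chosen after the data were seen. By that criterion 146 genes (1.45%) were higher and 84 genes (0.837%) were lower.

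Ccl3, a chemokine made by activated NK and T cells, was the gene that rose. Its level was 139, 93.4 and 76.3 CPM, against 8.67, 4.28 and 5.86 CPM in double negative cells without Ly49, so that the groups did not overlap. How often pool values did not overlap among all genes tested was not counted, here or below. The fitted log2 fold change was 4.03 (SE 0.61, edgeR adjusted p = 0.033), and over 13 alternatives the adjusted p ranged from 5.55e-10 to 0.62, with the call kept in 9. The UMIs came from few cells: a UMI was found in 13, 97 and 33 cells, and 1 WT cell held 53.8% of the WT total. After thinning to 10000 UMIs per cell, Ccl3 had a UMI in 12.9%, 11.03% and 22.2% of these cells and in 4.24%, 5.78% and 2.63% of cells without Ly49. The difference is from cells without Ly49 only. Against cells with Ly49 and Cd8a, compared below, Ccl3 was neither higher nor lower in each pool.

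Several activating receptors and adaptors of NK cells had higher values, though none was called. Tyrobp encodes the adaptor DAP12, and its level was 2401, 1358 and 2525 CPM, against 71.0, 248 and 995 CPM without Ly49. Fcer1g, another adaptor with an activation motif, was at 2062, 1728 and 3147 CPM against 146, 356 and 1024. In both genes the lowest pool with Ly49 was above the highest without it, and the gap was narrowest in the CD1d-deficient pool, where cells without Ly49 had the highest levels. Fcgr3, the low-affinity Fc receptor, was at 50.4, 24.8 and 118 CPM against 3.81, 1.17 and 35.2. Ncr1, encoding the activating receptor NKp46, was at 248, 195 and 298 CPM against 9.54, 9.51 and 163. Few cells carried much of this signal, most of all in the WT pool. The 5 highest cells of each pool held 76.4%, 21.7% and 39.6% of the Tyrobp UMIs and 58.1%, 18.2% and 43.7% of those of Fcer1g. For Fcgr3 the shares were 91.7%, 60.6% and 84.8%, and for Ncr1 87.7%, 33.4% and 47.1%. A UMI of Fcgr3 was found in 13, 65 and 41 cells, and one of Ncr1 in 15, 161 and 50. Of the 13 listed activating receptors and adaptors, 12 passed the filter on low counts, 7 of them were higher in each pool and 0 lower in each, beside 14% and 12.8% of all genes tested. At least 2-fold in each pool were Tyrobp, Fcer1g and Fcgr3. The median log2 fold change of the list was 1.76 and that of all genes tested -0.02. None of the list was called. The fitted log2 fold change was 3.11 (SE 0.77, edgeR adjusted p = 0.54) for Tyrobp and 2.60 (SE 0.61, edgeR adjusted p = 0.47) for Fcer1g, and each was called under 4 of 13 alternatives, in the same direction in 13 of 13.

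The Klr receptors of the same gene complex were higher to a smaller extent. Klre1, which forms heterodimers with Klri chains, was at 1024, 767 and 1287 CPM against 197, 340.3 and 628. Klrd1, encoding CD94, was at 1218, 1206 and 1907 CPM against 546, 673 and 829. Of 13 genes that passed the filter, out of 14, 9 were higher in each pool, 0 were lower in each, and Klre1 alone was at least 2-fold higher in each. Their median log2 fold change was 0.95. The 10 genes listed for NK cells and group 1 innate lymphoid cells, several of which are also on these lists, had a median of 2.44, with 6 higher and 1 lower in each pool. Cd160, a further receptor of NK and T cells, was at 869, 757 and 1357 CPM against 505, 416 and 574.

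Among effector genes, granzymes and the chemokine Ccl5 had the largest levels. Gzma was at 3089, 1671 and 3534 CPM against 109, 159 and 1654, and Gzmb at 2130, 841 and 2564 CPM against 387, 406 and 997. The highest value of Gzma without Ly49, in the CD1d-deficient pool, lay just under the lowest with Ly49. Few cells carried much of the granzyme signal: 1 WT cell held 44.7% of the Gzma UMIs of its pool, and after thinning Gzma had a UMI in 41.9%, 59.2% and 66.7% of cells. Ccl5 was broader, at 11865, 11581 and 22272 CPM against 3120.2, 5456 and 11038, and was found in all 62, 272 and 81 cells. Of 11 listed granule proteins and death ligands that passed the filter, 6 were higher and 0 lower in each pool, and Gzma and Gzmb were at least 2-fold higher in each. Xcl1, a chemokine for cross-presenting dendritic cells, was at 1065, 870.1 and 1553 CPM against 523, 477 and 751. Ifng, the interferon gamma gene, was close in both groups, with 159, 99.7 and 119 CPM against 131, 94.4 and 111.

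Genes with lower values came from several lists, and no list is tested by naming them. Ly6a, encoding Sca-1, was at 264, 393 and 89.6 CPM against 1027, 750 and 290. Cd40lg, the CD40 ligand, was at 59.4, 65.4 and 31.6 CPM against 259, 158 and 85.0, and Rora, a nuclear receptor of innate lymphoid cells, at 46.6, 79.3 and 55.04 CPM against 233, 184 and 144. Both were at least 2-fold lower in each pool without overlap. Icos, a costimulatory receptor, was at 54.2, 135 and 14.3 CPM against 265, 201 and 365. Cxcr6, the receptor that retains cells in liver sinusoids, was at 997, 1038 and 1010 CPM against 2186, 1634 and 1809, a smaller and more even difference. Zbtb16, encoding PLZF, the factor that directs NKT development, was at 3.82, 21.5 and 2.11 CPM against 47.6, 38.2 and 147 CPM, and Il4 at 52.1, 54.4 and 3.16 CPM against 159, 70.1 and 145. In the Jα18-deficient pool Zbtb16 and Il4 were within 2-fold. None of these genes was called (edgeR adjusted p from 0.27 for Ly6a and Cxcr6 to 0.998 for Zbtb16 and Il4). Ly6a and Cxcr6 were each called lower under 5 of 13 alternatives. The 14 NKT and innate lineage transcription factors that passed the filter, which include Zbtb16 and Rora, went both ways, with 4 higher in each pool (Id3, Nfil3, Zeb2 and Ikzf2), 4 lower (Zbtb16, Rora, Maf and Id2) and a median log2 fold change of 0.29. Of the 5 Ly6 genes that passed, 1 was higher and 4 were lower.

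Further genes at least 2-fold apart in each pool were Itga4, the α4 integrin chain, at 118, 184 and 93.6 CPM against 23.6, 61.5 and 18.2, and the transcription factor genes Nfil3 and Id3. Nfil3, which NK cells need to develop, was at 52.5, 39.3 and 66.4 CPM against 0.82, 12.1 and 9.12. Tbx21, encoding T-bet, was close in both groups, with 198, 237 and 217 CPM against 178, 244 and 233. Outside the lists, and named after their values were seen, Anxa2, an annexin, was at 516, 599 and 850 CPM against 71.7, 194 and 239, Cst7, a cystatin of cytotoxic cells, at 256, 226 and 422 CPM against 78.1, 69.5 and 95.1, and Tmem176b, a membrane protein gene, at 78.9, 158 and 74.6 CPM against 242, 521 and 253. Tmem176b had nearly the same ratio in every pool, with log2 ratios of -1.60, -1.71 and -1.75.

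**Figure D3:**
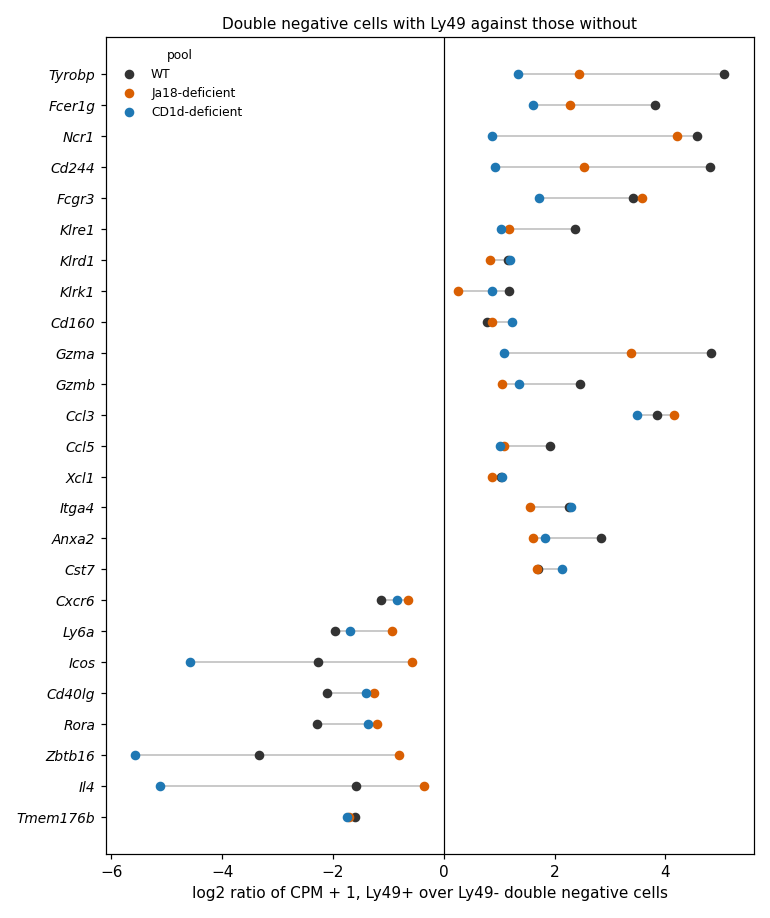
Points give, for each pool, the log2 ratio of CPM + 1 of double negative cells with Ly49 over those without it, with a line joining the 3 pools of a gene. Ccl3 has all points between 3.49 and 4.16, Tyrobp runs from 1.34 in the CD1d-deficient pool to 5.06 in the WT pool, and the 8 genes from Cxcr6 to Tmem176b lie left of 0 in every pool.

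The amount of Ly49 separated the cells further. Double negative cells were split by their Ly49 sum, and the share of cells with a gene at 5 or more UMIs per 10000 was taken, a split chosen after the data were seen. Tyrobp reached that level in 6.25% of WT cells with a sum from 0.5 to under 2, in 11.8% from 2 to under 10 and in 58.6% at 10 and above, beside 2.47% of cells without Ly49. For Jα18-deficient cells the same shares were 12.7%, 37.5% and 73.7%, beside 11.6%, and for CD1d-deficient cells they were 30%, 66.7% and 72.3%, beside 31.6%. For Tyrobp the lowest band thus lay near the cells without Ly49 in each pool, and the share was higher in each band above it. Other genes did not all follow this: Klre1 had 25% in the lowest WT band beside 13.1% without Ly49, Cxcr6 75% beside 92.6%, and Anxa2 in CD1d-deficient cells 0 of 10 cells beside 26.3%. Fcer1g had shares of 17.3%, 56.2% and 85.1% over the bands of the Jα18-deficient pool, beside 10.4% without Ly49. Cd7, an early T and NK cell surface protein, had 26.4%, 52.1% and 76.3%, beside 26.01%. Ly6a ran the other way, with 40.9%, 25% and 7.89%, beside 39.9%, for Jα18-deficient cells and 56.2%, 29.4% and 6.90%, beside 62.9%, for WT cells. The median of Cd3e over the bands was 2.67, 2.05 and 1.57 UMIs per 10000 for WT, 3.06, 2.94 and 2.12 for Jα18-deficient and 0.905, 1.17 and 1.70 for CD1d-deficient cells, so that it was lower toward high Ly49 in the first 2 pools and higher in the third. Depth moved with the bands in the WT pool, where the median was 19120, 30307 and 46646 UMIs, and its part in these shares was not tested. The lowest band holds 16 WT and 10 CD1d-deficient cells, so that its shares there move by several percentage points per cell.

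**Figure D4:**
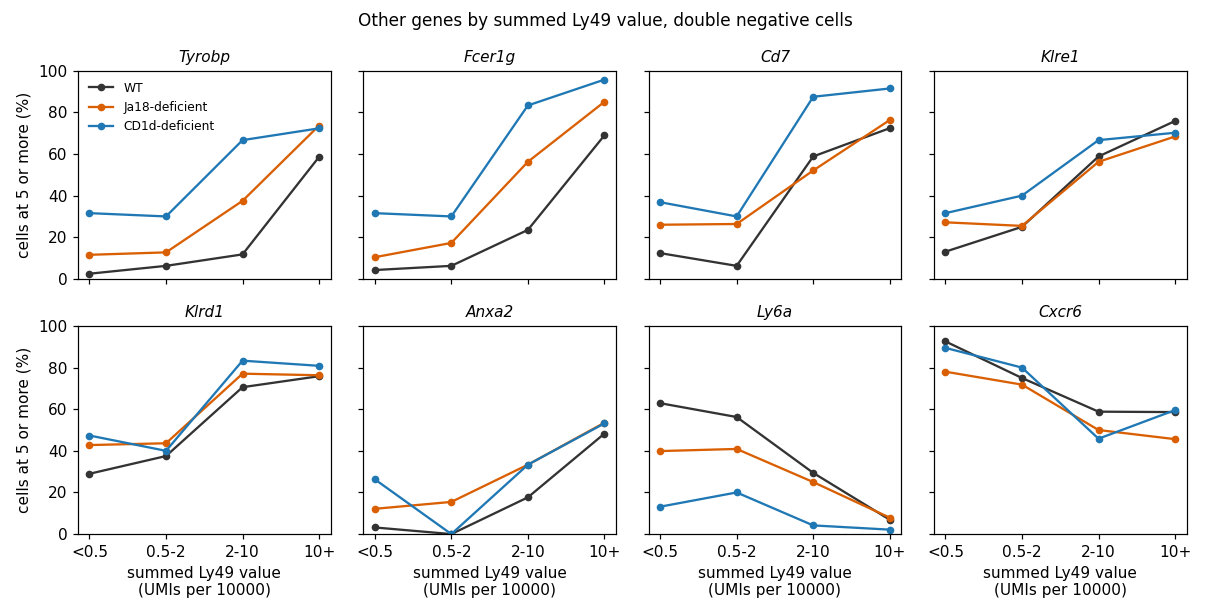
Lines give, per pool, the percentage of double negative cells with at least 5 UMIs per 10000 of a gene, for cells below the Ly49 threshold and in 3 bands of the summed Ly49 value. Tyrobp, Fcer1g, Cd7, Klre1, Klrd1 and Anxa2 have their lowest shares in the left-hand groups, Ly6a and Cxcr6 their highest, and the points at 0.5 to 2 rest on 16, 110 and 10 cells.

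The second comparison set the double negative Ly49+ cells beside the 216 cells that carry the same receptors together with Cd8a, of which the pools hold 30, 101 and 85. Of 10037 genes tested by edgeR, 0 were called in either direction, 396 (3.95%) had an unadjusted p under 0.05, DESeq2 called 5 higher and 1 lower, and limma called 0. Without the CD1d-deficient pool edgeR called 5 higher and 1 lower. At least 2-fold in each pool were 179 genes higher (1.78%) and 82 genes lower (0.817%).

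Gzma, Gzmb, Tyrobp and Fcer1g, higher above than in cells without Ly49, had lower values here than in Cd8a+ Ly49+ cells. Gzmb was at 2130, 841 and 2564 CPM against 5126, 2880 and 3549 in Cd8a+ Ly49+ cells, and Gzma at 3089, 1671 and 3534 CPM against 5054, 3761 and 4908. Tyrobp was at 2401, 1358 and 2525 CPM against 2675, 3475 and 3193. For all 3 genes the highest pool of double negative Ly49+ cells was below the lowest pool of Cd8a+ Ly49+ cells. The difference was less than 2-fold in CD1d-deficient cells for all 3, and in WT cells for Gzma and Tyrobp. Of the 11 granule genes that passed the filter 5 were lower (Gzma, Gzmb, Gzmc, Srgn and Tnfsf10) and 0 higher in each pool, while Gzmm, Prf1, Nkg7 and Ctsw, which were higher in each pool than in cells without Ly49, were not lower in each pool here. Of 12 activating receptors and adaptors 6 were lower and 0 higher, Ncr1, Fcgr3 and Cd244 not being among them, beside 10.2% of all genes tested that were lower in each pool and 14.8% that were higher. Their medians were -0.55 and -0.44 on the log2 scale, and that of all genes tested 0.03. Cd8b1, whose protein pairs with CD8α, was at 0, 9.09 and 13.3 CPM against 115, 53.0 and 53.8, and in WT cells 0 of 2876573 UMIs allow up to 1.04 CPM. Tox, a factor of T cell development, was at 38.6, 40.1 and 35.0 CPM against 183, 86.4 and 82.5.

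Several naive and memory genes had higher values than in Cd8a+ Ly49+ cells, in part through few cells, though none was called. Il7r, the IL-7 receptor of resting T cells, was at 548, 340 and 211 CPM against 175, 99.4 and 116, and Lef1, a factor of naive and memory T cells, at 231, 217 and 186 CPM against 80.2, 76.2 and 120. The groups of both genes did not overlap. Its partner Tcf7 was at 59.8, 89.2 and 81.0 CPM against 34.8, 33.4 and 19.7. S1pr1, the receptor by which lymphocytes leave tissues, was at 51.1, 37.1 and 51.9 CPM against 0, 5.33 and 14.1. Few cells carried it: 5 cells held 98.0%, 54.0% and 79.7% of its UMIs in double negative Ly49+ cells. Il7r and Tcf7 were higher in the cells with S1pr1, described below, than in the remaining double negative Ly49+ cells. In those remaining cells Tcf7 was slightly below the level of all Cd8a+ Ly49+ cells in the WT pool. Il7r there was about equal to that level in the CD1d-deficient pool. For each gene the other pools stayed above it. Of the 10 listed naive and memory genes 5 were higher and 0 lower in each pool, and their median log2 fold change was 1.19. The list that holds S1pr1, of tissue residence and circulation, went both ways, with 4 of 18 genes higher (S1pr1, Klf2, Cd69 and Ccr2), 4 lower (Itga1, Itgax, Rgs1 and Rgs2) and a median of -0.18. Cd5 and Cd6, which restrain T cell receptor signals, were at 41.7, 95.9 and 47.4 CPM against 11.2, 31.3 and 18.6, and at 63.97, 143 and 24.9 CPM against 5.6, 47.5 and 10.3. Both were at least 2-fold higher in each pool, as were Il2ra and Lta, whereas of the 16 genes of CD3 and T cell receptor signalling, among them Cd5 and Cd6, 3 were higher and 3 lower in each pool. Ly6a was at 264, 393 and 89.6 CPM against 121, 124 and 47.5, which put the double negative Ly49+ cells between double negative cells without Ly49 and Cd8a+ Ly49+ cells in each pool. Il7r had the lowest adjusted p of the listed genes (log2 fold change 1.45, SE 0.30, edgeR adjusted p = 0.75, range over 13 alternatives 0.044 to 1). Chosen after its values were seen, Mgat4a, a glycosyltransferase gene, was at 63.97, 83.5 and 117 CPM against 4.35, 24.5 and 17.9.

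**Figure D5:**
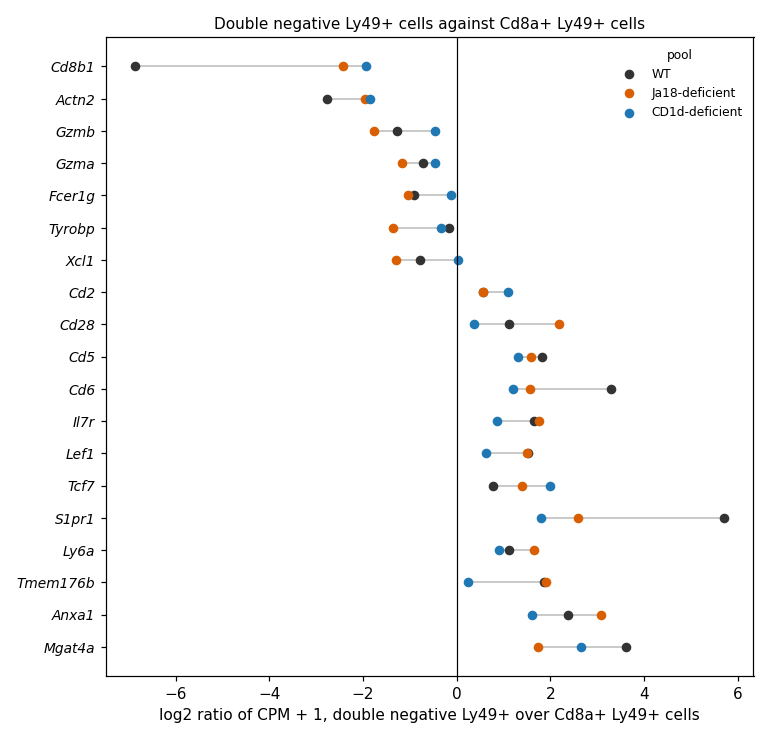
Points give, for each pool, the log2 ratio of CPM + 1 of double negative Ly49+ cells over Cd8a+ Ly49+ cells. The 6 genes from Cd8b1 to Tyrobp lie left of 0 in every pool, Xcl1 spans 0, and the 12 genes from Cd2 to Mgat4a lie right of 0 in every pool, with S1pr1 in the WT pool set against Cd8a+ cells at 0 UMIs.

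Against all other cells of at least 10000 UMIs as 1 class, 0 of 10342 genes were called in either direction by edgeR, 488 (4.72%) had an unadjusted p under 0.05, DESeq2 called 14 higher and 22 lower, and limma called 0. At least 2-fold in each pool were 38 genes higher (0.367%) and 123 lower (1.19%). The other cells were not alike between pools: cells without Ly49, Cd8a and Cd4 were 283 of 461 in the WT pool, while 85 of 146 in the CD1d-deficient pool were Cd8a+ Ly49+. Fcer1g was at 331, 1089.5 and 2552 CPM in the other cells, and its log2 ratios were 2.63, 0.66 and 0.30. Tyrobp was at 211, 1019 and 2556 CPM there, against 2401, 1358 and 2525 CPM in the double negative Ly49+ cells. Tyrobp was thus not higher in the CD1d-deficient pool. Gzmb, Xcl1 and Ccl3 were not higher in each pool either. Of 12 listed activating receptors and adaptors 5 were higher and 1 lower in each pool, beside 10.3% and 15.8% of all genes tested. Ccl5 was higher in every pool, with log2 ratios of 1.58, 0.48 and 0.33 (fitted log2 fold change 0.80, SE 0.15, edgeR adjusted p = 0.14), and was called under 7 of 13 alternatives. Tmem176b was lower by at least 2-fold in each (log2 ratios -1.42, -1.30 and -1.10, edgeR adjusted p = 0.14). Without the CD1d-deficient pool 27 genes were called higher and 16 lower.

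The double negative Ly49+ cells were not uniform. Cells with Ncr1 at 0.5 or above numbered 10, 66 and 37, and their median Ly49 sums were 28.3, 23.4 and 18.6 UMIs per 10000, against 6.67, 2.0 and 10.5 in the cells below 0.5. Gzma was at 4559.9 CPM with Ncr1 and 2523 without in WT cells, and at 5534 and 477 in Jα18-deficient cells, but the direction was the opposite in CD1d-deficient cells, at 3169.7 with Ncr1 and 3789.9 without. Ccl3 was at 223, 319 and 114 CPM with Ncr1 and 107, 23.7 and 49.9 without. S1pr1 at 0.5 or above marked 6, 29 and 12 cells. These had Il7r at 2182, 899 and 889 CPM against 356, 290 and 116 in the other double negative Ly49+ cells, and Cxcr6 at 234, 231 and 302 CPM against 1087, 1109 and 1109.6. Tcf7 was at 287, 292 and 419.9 CPM against 33.0, 71.2 and 33.2. Lower Cxcr6 together with higher Il7r and Tcf7 was thus measured in every pool. Gzmb was lower in the S1pr1 cells of every pool as well, at 9.89, 395 and 338 CPM against 2379.6, 879.9 and 2878. Gzma was not, with 9.89, 1729 and 81.9 CPM against 3452, 1666 and 4021, the Jα18-deficient cells being on a level. Dividing cells were rare, Mki67 reaching 0.5 in 1, 7 and 0 cells.

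Between genotypes, the double negative Ly49+ cells of the pools were compared by size alone. Cd1d1 checked the genotype: it had 17, 554 and 0 UMIs, and 0 of 4742413 UMIs allow up to 0.633 CPM. Tyrobp differed in these cells by a log2 ratio of -0.82 between the Jα18-deficient and WT pools and 0.07 between the CD1d-deficient and WT pools, whereas in all other cells the ratios were 2.27 and 3.59. Between the CD1d-deficient and Jα18-deficient pools the ratio was 0.89 in these cells and 1.33 in the others, a smaller contrast. Ly6a was lower in the CD1d-deficient pool than in the WT pool, with a log2 ratio of -1.55. Genes 2-fold higher made up 16.1% and genes 2-fold lower 5.19% of the 4931 compared between the Jα18-deficient and WT pools. Between the CD1d-deficient and WT pools they made up 14.4% and 12%, and between the CD1d-deficient and Jα18-deficient pools 7.61% and 17.2%. These shares depend on depth: after thinning, genes past 2-fold in either direction went from 21.3% to 6.96%, from 26.4% to 10.99% and from 24.9% to 11.4% for the same pairs. The genes with the largest ratios were partly shared with the other cells. Mtmr9, a myotubularin-related phosphatase gene, had 0, 2844 and 15 UMIs, and its level in all other cells was 2.99, 144 and 1.91 CPM. Lyz2, at 659 CPM in the CD1d-deficient pool and 17.3 in the Jα18-deficient pool, was at 569 and 11.6 in the other cells. The MHC class II genes H2-Eb1 and H2-Ab1 were at 42.0 and 109 CPM in the CD1d-deficient pool against 1.39 and 6.61 in the WT pool, and at 43.0 and 88.5 against 2.08 and 10.3 in the other cells. Fdft1, encoding squalene synthase, was nearer between pools in the other cells: it had 0 UMIs in WT and 1247 in Jα18-deficient double negative Ly49+ cells, while the other cells were at 26.8 and 40.0 CPM. With 62 cells in the WT pool, a gene carried by few cells can be missed there.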

How the data were processed

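The deposited matrix holds UMI counts, not normalized, for 24447 genes in 1735 cells. By the study's methods, the authors trimmed reads with Cutadapt v1.15, aligned them to the mm9 transcriptome with TopHat v2.0.12, removed duplicates by UMI and counted genes with HTSeq v0.10.0. How that counting treated reads shared by paralogs is not given in the sources used here. The 353 cells below 10000 UMIs were left out, and no doublet caller was run on the hand-picked cells. The 24 libraries of the labels could not be told apart, since cell names carry the genotype only, and 0 names occurred more than once. Members and gene lists were chosen with earlier results of these data known. Double negative Ly49+ cells had 2876573 (WT), 26407691 (Jα18-deficient) and 4742413 UMIs (CD1d-deficient) in sum, and intervals cover counting error only. The labels tie no cell to an animal. With pool as a term, p-values rest on how far differences between classes vary across pools of different genotypes, not between mice.

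Counts were summed per pool and class (at least 10 cells) and tested in R 4.3.3 with edgeR 4.0.16 (TMM, filterByExpr, glmQLFit, pool as a term), leaving the 6 genes of the definition out of the genes tested, in a fit of 2 classes for all other cells and of 4 classes otherwise. DESeq2 1.42.0, limma 3.58.1 on log2 of the mean CPM plus 2, other count filters, no pool term, other definitions, thinning and leaving out a pool were alternatives. The tests were tried on simulated counts. Per list, up to 4 genes with the lowest adjusted p and the defining genes were eligible to be named, as were, between pools, the 5 largest ratios of genes reaching 100 UMIs over both pools compared and found in 20% of either pool's cells. Other genes named were chosen after their values were seen. Sequences are from GENCODE M1 (NCBIM37). Python 3.11.15, scipy 1.17.1 and matplotlib 3.10.9 served for tables and figures.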

Additional observations from a re-analysis of the deposited data

Results flagged for a closer look

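The 353 cells below 10000 UMIs entered no comparison, and 30.0% of them (106 cells, exact 95% interval 25.3 to 35.1%) met the gene part of the definition. By pool, in the order WT, Jα18-deficient, CD1d-deficient, these were 13.0%, 40.9% and 34.4% of 100, 93 and 160 cells. The median depths of those pools below 10000 UMIs were 4508.5, 6333 and 5556 UMIs, depths at which 1 UMI of a Ly49 gene is enough to pass the threshold. The same holds for analysed cells of up to 20000 UMIs. Among cells of at least 20000 UMIs, 43, 237 and 60 met the definition, or 9.58%, 43.7% and 36.1%.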

How the results depend on the processing

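Shares of double negative Ly49+ cells moved beyond their intervals in the WT pool to 16.6% after thinning, to 8.99% with no UMI of Cd8a or Cd4 and to 8.80% with a Ly49 sum of at least 2, in the Jα18-deficient pool to 23.1% and 25.6% under the last 2 settings, and in the CD1d-deficient pool to 21.1% with no UMI of Cd8a or Cd4. Jα18-deficient cells with 2 or more Ly49 genes moved to 61.7% with a sum of at least 2. Genes past 2-fold between pools fell with thinning from 21.3% to 6.96% (Jα18-deficient against WT), from 26.4% to 10.99% (CD1d-deficient against WT) and from 24.9% to 11.4% (CD1d-deficient against Jα18-deficient).

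Against all other cells, counts of genes called higher and lower were 14 and 22 by DESeq2, 9 and 7 with a Ly49 sum of at least 2, 3 and 5 with at least 10 UMIs in every sum, 16 and 15 without a filter, 0 and 1 without the deepest 10% of cells, and 1 to 27 and 0 to 16 with a pool left out. Against Cd8a+ Ly49+ cells they were 5 and 1 by DESeq2, 8 and 0 after thinning, 4 and 0 without the deepest 10%, and 0 to 5 and 0 to 1 with a pool left out. Against double negative cells without Ly49 they were 12 and 8 by DESeq2, 2 and 4 with a sum of at least 2, 0 higher at 20000 UMIs and by limma, 11 and 3 after thinning, 7 and 1 with no UMI of Cd8a or Cd4, 19 and 4 without a filter, 2 lower without the deepest 10%, and 0 to 12 and 0 to 2 with a pool left out. The cause of these changes was not tested. With a pool left out, 2 pools remain and the spread rests on them. For single genes 58 results were followed, all for genes picked for the text, some after their values were seen. Of their values under the alternatives, 619 kept direction and side of the threshold, 124 newly passed it, 4 no longer passed it, and 0 were reversed past it. Most alternatives use largely the same cells, so that a kept direction is not independent support. No paired analysis was possible because the libraries share replicate numbers across genotypes but the cell names carry none, and each pool already is a term of the fit.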
